A study of Saccharomyces cerevisiae with 24 samples.

Results

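GCN4 and 43 genes of amino acid synthesis were followed across 8 strain groups of Saccharomyces cerevisiae in strand-specific RNA sequencing libraries. The genes were chosen by pathway: the transcription factor GCN4, 6 genes of histidine synthesis, 10 of branched-chain synthesis, 7 of lysine, 10 of aromatic, 5 of threonine, 2 of proline and 3 of glutamine and asparagine synthesis. Genes of arginine, serine and sulfur amino acid synthesis were not included. The 44 genes were all found among the 6571 genes of the sense count table, and all 44 passed the filter on low counts that left 5790 genes for testing. They took 2.09 to 2.95% of the sense counts of a library.

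The series concerns the ubiquitylation of histone H2B by the ubiquitin-conjugating enzyme Rad6 and its stimulation by Rtf1, a subunit of the Paf1 complex. Each of the 8 groups had 3 biological replicates. All strains were MATa his3Δ200 lys2-128δ ura3-52 trp1Δ63 haploids, so each lacked HIS3 and carried an altered LYS2. One wild type had no epitope tags (WT untagged) and the other carried 3xHA-RTF1 and RAD6-13xMYC::KanMX (WT tagged). RAD6 was deleted as rad6Δ::KanMX either without tags (rad6Δ untagged) or together with 3xHA-RTF1 (rad6Δ tagged), which has no Myc tag because it has no Rad6. The strain H2B-K123R had the lysine that is ubiquitylated changed in both H2B genes, as HTA1-htb1K123R HTA2-htb2-K123R, and no tags. The other 3 mutants carried both tags: rtf1-108-110AAA changes Rtf1, and rad6-R6Q and rad6-R6A,M10A change the amino-terminal helix of Rad6. Each genotype was represented by a single strain. Cultures were grown in YPD, a rich medium that supplies amino acids, to log phase at an OD600 of 0.8 to 1.0 and mixed 9 to 1 with Kluyveromyces lactis cells before RNA was extracted.

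In budding yeast, Gcn4 is a basic leucine zipper protein that activates genes of nearly all amino acid synthesis pathways when cells are short of amino acids. Its amount is set mainly by translation, through short open reading frames in the leader of its mRNA and the eIF2α kinase Gcn2, and by rapid degradation of the protein, so the level of GCN4 mRNA is not a measure of Gcn4 activity. Pathway-specific activators such as Leu3, for leucine genes, and Lys14, for lysine genes, respond to intermediates of their own pathways and act beside Gcn4.

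Each library held 7227245 to 10782960 sense counts, 411344 to 611282 antisense counts and 1051104 to 1591505 counts of K. lactis. RAD6 had 0 or 1 counts in each of the 6 rad6Δ libraries and 357 to 1587 elsewhere, and HIS3 had 0 counts in all 24 libraries. TRP1, which lies at the trp1Δ63 allele, still had 16 to 88 counts per library. The 5 a-specific mating genes STE2, STE6, MFA1, MFA2 and BAR1 were present in all libraries but fell in all 6 mutants. Their summed level was 3081 to 3393 CPM in the wild types, 768 to 907 CPM in the rad6Δ libraries and 1711 to 2210 CPM in the other mutants, where CPM is the count scaled to the TMM-adjusted sense total of its library. The summed level of the 4 alpha-specific genes STE3, MF(ALPHA)1, MF(ALPHA)2 and SAG1 lay between 5.49 and 12.4 CPM in all libraries, with 0 to 4 counts of MF(ALPHA)1 per library. Their part in the results was not tested. RAD6 stood at 45.7 to 62.2 CPM in the wild types and 67.5 to 70.4 CPM in H2B-K123R. It was higher in the tagged substitutions, at 142 to 162 CPM in rad6-R6A,M10A, 112 to 146 CPM in rad6-R6Q and 68.8 to 132 CPM in rtf1-108-110AAA. Whether this bears on the members was not tested. In rad6-R6Q replicate 1, TRP2, LEU4 and LEU9 stood at 30.8, 148 and 154 CPM, each below its level in the other 2 rad6-R6Q libraries. Over replicates 1, 2 and 3 the counts were 279, 2248 and 1227 for TRP2, 1343, 4782 and 2831 for LEU4, and 1391, 4467 and 3226 for LEU9. Sense calls of members against WT tagged that were lost without replicate 1 of rad6-R6Q are named with their pathways. The fold change without it is given for LEU9 and ASN2 only.

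In wild-type cells these were abundant transcripts. Their median level over the 6 wild-type libraries was 182 CPM per kb of coding length, against 40.5 for the 5569 tested genes with a length. The highest levels per kb were those of HOM2 (1502, range 1415 to 1715), which encodes aspartate-semialdehyde dehydrogenase, LEU1 (1499, range 1345 to 1659.5), which encodes isopropylmalate isomerase, and ASN2 (1284, range 1184 to 1403), which encodes an asparagine synthetase. HOM2 and LEU1 did not differ beyond their spread. The lowest were LYS20 (4.79), LYS21 (6.69), HOM3 (7.08) and LYS1 (7.77), whose ranges overlapped each other. LYS20 and LYS21 share 95.0% of bases, so reads that match both may have been left out and their low place is uncertain. GCN4 stood at 266 CPM per kb (range 231 to 302). No member was called between the 2 wild types (6 had an unadjusted p under 0.05, DESeq2 called 0, and 0.674% of all genes tested were called), where called means an adjusted p under 0.05 in edgeR's quasi-likelihood test with Benjamini-Hochberg adjustment over all genes tested.

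Against the wild type with the same tags, the synthesis genes split in direction within every mutant. In rad6Δ tagged, 11 members rose and 12 fell, and in rad6Δ untagged 7 rose and 18 fell. The shares of all genes called were 41.7% and 42.8%, with 21.5% and 22.3% risen and 20.2% and 20.5% fallen. H2B-K123R had 7 members risen and 11 fallen, where 14% and 12.3% of all genes were risen and fallen. The shares of all genes called either way were 26.3% there and, in the tagged substitutions, 25.2% for rad6-R6A,M10A, 29.1% for rad6-R6Q and 24.5% for rtf1-108-110AAA. In the 3 tagged substitutions more members rose than fell. They are set against WT tagged, where members were lower than in WT untagged by a median log2 of -0.18, with 13 of 44 above 0, while the median of all genes was 0.01. There, 13 members rose and 4 fell in rad6-R6A,M10A (all genes 12% and 13.2%). In rad6-R6Q 16 rose and 6 fell (14.6% and 14.5%). In rtf1-108-110AAA 16 rose and 3 fell (11.9% and 12.6%). The members' median log2 fold changes were -0.28, 0.09, -0.13, 0.22, 0.15 and 0.28 for rad6Δ untagged, then rad6Δ tagged, then H2B-K123R, followed by the substitutions rad6-R6A,M10A, then rad6-R6Q and last rtf1-108-110AAA. Wherever 6 values, or 3 for the tagged substitutions, are listed without names, they follow this order, and pairs of values for the rad6Δ strains give the untagged strain first unless strains are named. The medians of all tested genes lay within 0.02 of 0. All 3 libraries lay above the wild type for 9, 14, 11, 17, 16 and 17 members in that order, and below it for 24, 16, 17, 7, 7 and 5. Over all genes the groups did not overlap for 58.5, 56.3, 47, 41.2, 36.8 and 36%. Without WT tagged replicate 1, rad6-R6A,M10A had 11 members called in place of 17. The comparisons share wild-type libraries: 4 mutants were set against WT tagged and 2 against WT untagged.

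Scaling to the K. lactis counts in place of the S. cerevisiae counts moved the medians of all genes to 0.24, 0.33, 0.04, 0.26, 0.17 and 0.24 in that order, and those of the members to -0.05, 0.40, -0.08, 0.49, 0.34 and 0.52. Members risen and fallen were then 8 and 11, 19 and 7, 7 and 8, 23 and 1, 20 and 1, and 22 and 1. This scaling ended 25 of the 124 calls of members, all of them falls. They were those of BAT1, ILV2, LYS12, ARO7 and HOM2 in rad6Δ tagged, and of HIS1, HIS6, BAT1, ILV2, ILV6, LYS12 and TRP4 in rad6Δ untagged. They were also those of LEU9, LYS12 and ARO1 in H2B-K123R, LYS4 and LYS9 in all 3 tagged substitutions, GCN4 in rad6-R6Q and rad6-R6A,M10A, and LEU9 and ILV5 in rad6-R6Q. All changes below are relative to the S. cerevisiae total. The medians of all genes rose in every mutant with this scaling, and more RNA per cell cannot be told apart here from a different proportion of mixed cells.

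Across the 6 mutants, 39 of the 44 members were called in at least 1 (63.5% of all genes tested). HIS4, HIS7, ARO3, TRP3 and ASN1 rose in all 6 (4.8% of all genes), and LYS4, LYS9 and HOM6 fell in all 6 (4.97%). HIS1, BAT2, ILV2, ILV6 and ARO1 were called in both directions among the 6 comparisons (1%). For HIS1, ILV6 and ARO1 every fall was against WT untagged and every rise against WT tagged. For these genes the mutant and the wild type used cannot be told apart. In all, 17 members rose in 1 or more mutants and fell in none (31.3% of all genes), and 17 fell in 1 or more and rose in none (31.2%), counting those called in all 6. Only HIS2, LEU4, LYS21, ARO8 and TRP2 were called in no mutant. The map of fold changes shows that pathways were not moved as blocks: histidine, aromatic and lysine synthesis each held risen and fallen or uncalled genes in the same strain.

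**Figure D1:**
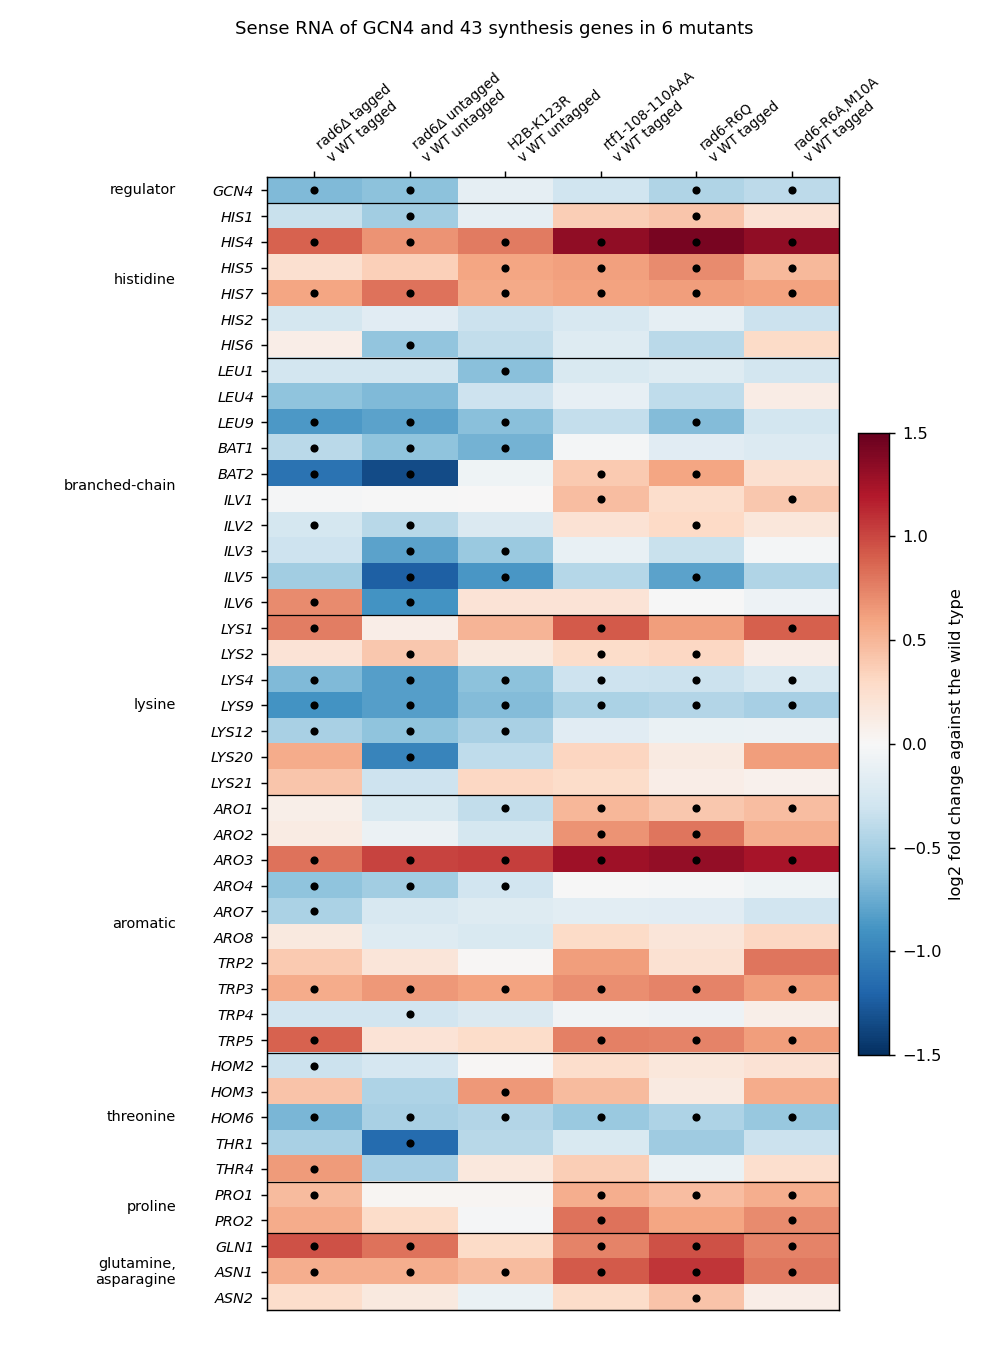
Log2 fold change of each of the 44 genes (vertical axis, grouped by pathway) in each mutant against the wild type of its tag status (horizontal axis), with black dots on the cells called at an adjusted p under 0.05. HIS4, HIS7, ARO3, TRP3 and ASN1 are dotted red across all 6 columns, LYS4, LYS9 and HOM6 dotted blue, and BAT2 is dotted blue in the 2 rad6Δ columns and dotted red in rtf1-108-110AAA and rad6-R6Q.

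GCN4 mRNA was lower in the strains without Rad6. GCN4 (YEL009C, chrV:138918-139763, minus strand, R64) stood at 244, 243 and 213 CPM in WT tagged and 158, 156 and 129 CPM in rad6Δ tagged. It stood at 255, 199 and 195 CPM in WT untagged and 148, 150.2 and 126 CPM in rad6Δ untagged. Both pairs of groups were apart, and the log2 fold changes ± SE were -0.66 ± 0.11, adjusted p = 7.4e-05, in the tagged and -0.61 ± 0.11, adjusted p = 0.00016, in the untagged pair. In rad6-R6Q the 3 values were 152, 186 and 173 CPM and in rad6-R6A,M10A 166, 186 and 184 CPM, all below the 3 WT tagged libraries. These smaller falls were called (-0.46 ± 0.11, adjusted p = 0.0044, and -0.39 ± 0.11, adjusted p = 0.015), but with K. lactis scaling they were -0.27 and -0.13 and were not called (adjusted p = 0.12 and 0.48). The rad6-R6A,M10A call was also lost without its replicate 1 or WT tagged replicate 2, with adjusted p up to 0.083. In rtf1-108-110AAA the values 198, 184 and 189 CPM lay below the wild type too, with a log2 fold change of -0.29 ± 0.11, adjusted p = 0.061. In H2B-K123R the values 203, 203 and 186 CPM overlapped those of WT untagged, with a log2 fold change of -0.13 ± 0.11, adjusted p = 0.41. Set directly against the deletion of its own tag status, GCN4 was higher in H2B-K123R (0.48 ± 0.11, adjusted p = 0.0081) and in rtf1-108-110AAA (0.37 ± 0.11, adjusted p = 0.032), and not called in rad6-R6Q (0.21 ± 0.11, adjusted p = 0.23) or rad6-R6A,M10A (0.27 ± 0.11, adjusted p = 0.15).

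Among 23 genes listed for the control of GCN4 expression or Gcn4 stability, 9 were called in rad6Δ tagged (5 risen, 4 fallen) and 9 in rad6Δ untagged (3 risen, 6 fallen), with 5 to 6 called in each of the other mutants. That is 9 of 23 in strains where 41.7 and 42.8% of all genes were called, and 5 to 6 of 23 where 24.5 to 29.1% were. GCN2, the kinase that raises GCN4 translation, rose slightly in the 2 rad6Δ strains (log2 0.31 ± 0.09 and 0.24 ± 0.09, adjusted p = 0.0064 and 0.035) and was not called elsewhere. GCN1, whose product is needed to activate Gcn2, fell in all mutants but rad6-R6Q, with log2 values of -0.40, -0.45, -0.48, -0.33, -0.24 and -0.32. Of the genes of the SCF ubiquitin ligase that targets Gcn4 for degradation, CDC53, the cullin, rose in all 6 mutants by log2 0.44 to 1.00, while CDC4, the F-box subunit, fell in all 6 by 0.30 to 0.64 on the log2 scale. SKP1, the adaptor subunit, rose in 5 of 6. The ligase has many other substrates.

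The promoters hold the sequence that Gcn4 binds more often than those of other genes, which is why the stretches around it are shown. Windows from 250 bases before to 50 bases after the start codon were searched in the R64 genome of RefSeq on both strands. The 7-base motif TGACTCA was found in 18 of 44 members (40.9%) against 164 of 5896 windows of all genes (2.78%), once in each of the 18. The shorter TGACTC, which the first motif contains, was found in 24 members (54.5%) against 8.12% of all windows. The Leu3 motif, CCGG and CCGG with any NN between them, was found before LEU1 and BAT1 (8 of 5896 windows in all, 0.136%), and the Lys14 motif TCCNNNGGA before LEU9, LYS1, LYS9 and LYS12 (3.46% of all windows). A match is a description of the sequence and was not tested for binding.

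The Gcn4 motif stood upstream of 4 of the 5 genes that rose in all 6 mutants, namely HIS4, HIS7, TRP3 and ASN1, but not ARO3. The stretches below show the site in capitals, read along the gene's coding strand from 5′ to 3′, with 25 bases on each side. A site in capitals as TGAGTCA is the same motif on the other strand.
HIS4: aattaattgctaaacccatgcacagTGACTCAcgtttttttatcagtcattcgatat
HIS7: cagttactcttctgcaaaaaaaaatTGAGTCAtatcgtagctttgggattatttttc
TRP3: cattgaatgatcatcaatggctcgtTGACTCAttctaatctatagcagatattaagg
ASN1: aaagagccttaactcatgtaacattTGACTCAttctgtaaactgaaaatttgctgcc
They lie at chrIII:68501-68557 on the minus strand for HIS4, chrII:716665-716721 on the minus strand for HIS7, chrXI:38245-38301 on the minus strand for TRP3 and chrXVI:822368-822424 on the plus strand for ASN1. The sites begin 199 bases before the start codon of HIS4, 231 before HIS7 and 227 before ASN1.

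The same 7 bases also stood upstream of genes that fell, shown here to set them beside the first set.
BAT1: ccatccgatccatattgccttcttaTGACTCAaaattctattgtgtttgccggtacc
ILV3: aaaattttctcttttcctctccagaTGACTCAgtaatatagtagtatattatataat
ILV5: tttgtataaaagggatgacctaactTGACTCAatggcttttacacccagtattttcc
These stretches lie at chrVIII:517336-517392 on the plus strand for BAT1, chrX:466312-466368 on the minus strand for ILV3 and chrXII:839362-839418 on the minus strand for ILV5, with sites that begin 171, 135 and 140 bases before the start codon. BAT1 fell in 3 mutants, ILV3 in 2 and ILV5 in 3, and none of them rose in any.

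The genes with the 7-base site had higher median fold changes than those without it in each of the 6 mutants. The medians with and without the site were 0.13 and -0.44 in rad6Δ untagged, 0.25 and -0.26 in rad6Δ tagged, and 0.02 and -0.22 in H2B-K123R. They were 0.34 and 0.13 in rad6-R6A,M10A, 0.41 and -0.05 in rad6-R6Q, and 0.44 and 0.11 in rtf1-108-110AAA. Of the 18 genes with a site, 9 rose and 0 fell in rtf1-108-110AAA, while 5 rose and 5 fell in rad6Δ untagged. Risen and fallen were 6 and 2 in rad6Δ tagged, 5 and 4 in H2B-K123R, 8 and 0 in rad6-R6A,M10A and 9 and 1 in rad6-R6Q. Of the 26 without a site, 7 rose and 3 fell in rtf1-108-110AAA, and 2 rose and 13 fell in rad6Δ untagged. Their counts were 5 and 10 in rad6Δ tagged, 2 and 7 in H2B-K123R, 5 and 4 in rad6-R6A,M10A and 7 and 5 in rad6-R6Q. Of all genes, 11.9% rose and 12.6% fell in rtf1-108-110AAA, and 22.3% and 20.5% in rad6Δ untagged. These shares were 21.5 and 20.2% in rad6Δ tagged, 14 and 12.3% in H2B-K123R, 12 and 13.2% in rad6-R6A,M10A and 14.6 and 14.5% in rad6-R6Q. The 24 members with the shorter TGACTC again had the higher median in each mutant, but by less. For rad6Δ untagged the medians were -0.24 with it and -0.36 without it, and 9 genes fell in each set. Those for rad6Δ tagged were 0.15 and -0.26, and those for H2B-K123R -0.0045 and -0.22. For rad6-R6A,M10A they were 0.23 and 0.115, for rad6-R6Q 0.25 and 0.12, and for rtf1-108-110AAA 0.32 and 0.24. These medians and counts describe the sets and were not tested.

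**Figure D2:**
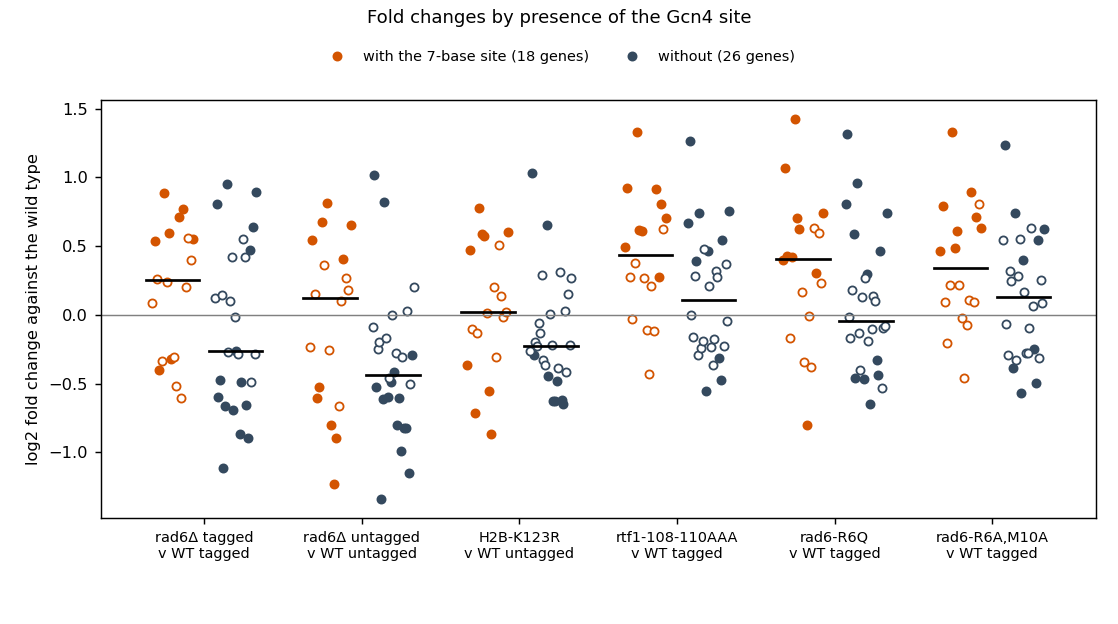
Log2 fold change against the wild type (vertical axis) of the 18 genes with the 7-base Gcn4 motif (orange) and the 26 without it (dark blue) in each mutant (horizontal axis), with filled points for called genes and black bars for medians. Both sets spread on both sides of 0 in every mutant, and the bar of the genes with the site is the higher one in all 6.

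Histidine synthesis did not move as one: HIS4 and HIS7 rose in all 6 mutants and HIS5 in 4, HIS6 fell in 1, HIS1 fell in 1 and rose in another, and HIS2 was called nowhere. HIS4 (YCL030C, chrIII:65934-68333), which encodes an enzyme with 3 activities of the pathway, stood at 1237, 1022 and 1357 CPM in WT tagged and 1394, 1446 and 1489 CPM in WT untagged. In the tagged substitutions it reached 2709, 3293 and 3081 CPM in rad6-R6A,M10A, 3696, 2707 and 3312 CPM in rad6-R6Q and 3720.1, 2902 and 2467 CPM in rtf1-108-110AAA. Its group means were between those of the wild types and the tagged substitutions in rad6Δ tagged (2305, 1967 and 2407 CPM), in rad6Δ untagged (2537, 2140.3 and 2233 CPM) and in H2B-K123R (2439, 2160.2 and 2812 CPM). Single libraries of rad6Δ untagged and H2B-K123R lay inside the range of the tagged substitutions, and all those of rad6Δ tagged lay below it. All 18 mutant libraries were above all 6 wild-type libraries. The log2 fold changes were 0.67, 0.89, 0.78, 1.33, 1.43 and 1.33, each with an SE of 0.15 and an adjusted p of at most 0.00079. HIS7, which encodes imidazole glycerol phosphate synthase, rose by nearly the same amount in 5 mutants, with log2 values of 0.82, 0.60, 0.57, 0.61, 0.62 and 0.61, where the highest was that of rad6Δ untagged. Its levels were 166 to 196 CPM in the wild types and 239 to 337 CPM in the mutants, which did not overlap.

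The other 4 histidine genes did not follow HIS4 in all strains. HIS5, which encodes the aminotransferase of the pathway, rose in H2B-K123R and the 3 tagged substitutions (log2 0.59, 0.49, 0.71 and 0.62), and was not called in rad6Δ tagged (0.24 ± 0.15, adjusted p = 0.22) or rad6Δ untagged (0.36 ± 0.15, adjusted p = 0.062). HIS1, which encodes the first enzyme of the pathway, fell in rad6Δ untagged (-0.52 ± 0.16, adjusted p = 0.0092) and rose in rad6-R6Q (0.42 ± 0.16, adjusted p = 0.047). HIS6, an isomerase of the pathway, fell in rad6Δ untagged alone among the 6 comparisons (-0.60 ± 0.18, adjusted p = 0.0094). HIS2, the histidinol phosphatase gene, stood at 56.9 to 69.3 CPM in the wild types and 44.5 to 74.5 CPM in the mutants, with log2 values of -0.33 to -0.13 and no call. When single libraries were left out, the call of HIS6 in rad6Δ untagged was lost without its replicate 1 or WT untagged replicate 3 (adjusted p up to 0.053), and that of HIS1 in rad6-R6Q without its replicate 1 or 3 or WT tagged replicate 1 or 2 (up to 0.21). The call of HIS5 in rad6-R6A,M10A was lost without its replicate 2 or WT tagged replicate 1 or 2 (up to 0.11).

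**Figure D3:**
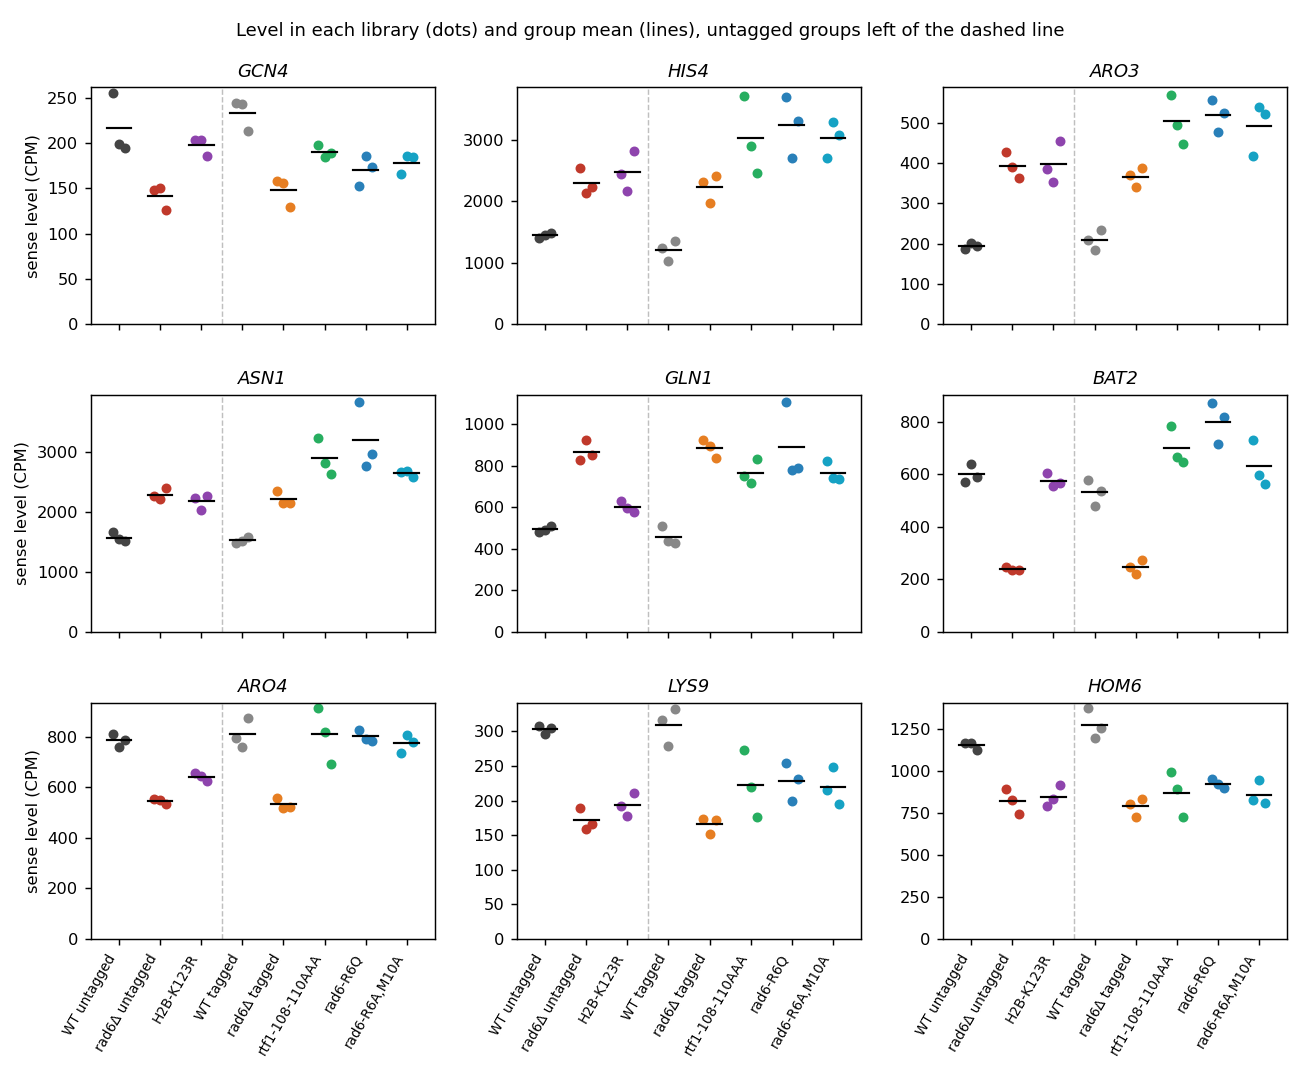
Sense level in CPM (vertical axis, from 0) of 9 genes in each of the 24 libraries (points) by strain group (horizontal axis), with the group mean as a black line and the untagged groups left of the dashed line. HIS4, ARO3 and ASN1 are higher in all mutant groups and highest in the 3 tagged substitutions, and BAT2 is low only in the 2 rad6Δ groups, at 219.5 to 274 CPM.

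Of the aromatic genes, those for the 2 isozymes of the first step moved apart. ARO3 and ARO4 both encode DAHP synthases, which begin the shikimate pathway, and share 67.1% of bases over 85.4% of their length. ARO3 (YDR035W, chrIV:521816-522928), the phenylalanine-inhibited isozyme, stood at 187, 201 and 195 CPM in WT untagged, 427, 389.7 and 362 CPM in rad6Δ untagged and 386, 352 and 454 CPM in H2B-K123R. Among the tagged strains it stood at 209.8, 184 and 234 CPM in WT tagged, 371, 340.0 and 388 CPM in rad6Δ tagged, 417, 538 and 522 CPM in rad6-R6A,M10A, 558, 477 and 524 CPM in rad6-R6Q and 569, 494 and 448 CPM in rtf1-108-110AAA. All mutant libraries lay above all wild-type libraries. The log2 fold changes were 1.02, 0.81, 1.03, 1.23, 1.31 and 1.27, with SE of 0.12 and adjusted p of at most 1.7e-05. ARO4 (YBR249C), the tyrosine-inhibited isozyme, fell in the 2 rad6Δ strains, from 758 to 874 CPM in the wild types to 519 to 559 CPM. Its log2 fold changes were -0.53 ± 0.09, adjusted p = 6.9e-05, and -0.60 ± 0.09, adjusted p = 1.7e-05. It fell less in H2B-K123R (-0.29 ± 0.09, adjusted p = 0.02). In the 3 tagged substitutions ARO4 stood at 692 to 915 CPM, with log2 values of -0.07, -0.01 and -0.0016, and with K. lactis scaling these turned to 0.21, 0.18 and 0.24.

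TRP3, whose product carries anthranilate synthase and indole-glycerol phosphate synthase activities, had log2 fold changes of 0.55 to 0.74, all called, and rose from 247 to 296 CPM in the wild types to 363 to 501 CPM. TRP5, tryptophan synthase, rose in the 4 tagged mutants by 0.89, 0.63, 0.74 and 0.76 and was not called in rad6Δ untagged (0.20 ± 0.21, adjusted p = 0.46) or H2B-K123R (0.27 ± 0.21, adjusted p = 0.37). The 6 mutant means were 117 to 144 CPM, while the tagged wild type was at 77.6 ± 13.4 CPM and the untagged at 102 ± 35.9 CPM (SD, n = 3), a difference between wild types that was not called (log2 -0.39 ± 0.21, adjusted p = 0.48). TRP4, the phosphoribosyltransferase gene, was called in rad6Δ untagged alone (-0.29 ± 0.11, adjusted p = 0.043). TRP2, the partner of Trp3 in anthranilate synthase, varied from 30.8 to 234 CPM among libraries and was called nowhere. ARO1, which encodes the pentafunctional enzyme of the shikimate pathway, rose in the 3 tagged substitutions (0.46, 0.40 and 0.50) and fell in H2B-K123R (-0.37 ± 0.13, adjusted p = 0.041). ARO2, chorismate synthase, rose in rtf1-108-110AAA (0.67 ± 0.23, adjusted p = 0.041) and rad6-R6Q (0.81 ± 0.23, adjusted p = 0.013). Its counts, not scaled for library size, were 3066, 3089 and 2662 in WT tagged and 4538, 4132 and 3690 in WT untagged. That difference between wild types was not called. ARO7, chorismate mutase, fell in rad6Δ tagged (-0.48 ± 0.13, adjusted p = 0.006), and was not called elsewhere. ARO8, an aromatic aminotransferase gene, stood at 561 to 1013 CPM and was called nowhere. When single libraries were left out, the call of TRP4 in rad6Δ untagged was lost without its replicate 1, 2 or 3 or WT untagged replicate 1 or 2 (adjusted p up to 0.14), and that of ARO1 in H2B-K123R without its replicate 2 or 3 or WT untagged replicate 1 or 3 (up to 0.26). The call of ARO4 in H2B-K123R was lost without its replicate 3 or WT untagged replicate 1 or 3 (up to 0.075), and that of ARO2 in rtf1-108-110AAA without its replicate 2 or 3 or WT tagged replicate 1, 2 or 3 (up to 0.21). The call of TRP5 in rtf1-108-110AAA was lost without its replicate 2 or WT tagged replicate 3 (up to 0.066), and that of ARO1 in rad6-R6Q without its replicate 2 or WT tagged replicate 1, 2 or 3 (up to 0.18). The call of ARO2 in rad6-R6Q was lost without its replicate 1 or WT tagged replicate 3 (up to 0.095), and that of TRP5 in rad6-R6Q without its replicate 1 or WT tagged replicate 3 (up to 0.062). The call of ARO1 in rad6-R6A,M10A was lost without its replicate 3 or WT tagged replicate 1 (up to 0.095), and that of TRP5 in rad6-R6A,M10A without its replicate 1 or 3 or WT tagged replicate 1, 2 or 3 (up to 0.15).

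Of the 10 branched-chain genes, 7 fell and 0 rose in rad6Δ untagged, 4 fell and 1 rose in rad6Δ tagged, and 5 fell and 0 rose in H2B-K123R, where 20.5, 20.2 and 12.3% of all genes fell. K. lactis scaling ended the falls of BAT1 and ILV2 in both rad6Δ strains, of ILV6 in rad6Δ untagged and of LEU9 in H2B-K123R. In the tagged substitutions 1 rose and 0 fell, 2 rose and 2 fell, and 2 rose and 0 fell. Of all genes, 12, 14.6 and 11.9% rose there and 13.2, 14.5 and 12.6% fell. BAT2 differed most between the deletion and the substitutions. BAT2 (YJR148W, chrX:705744-706874), the cytosolic branched-chain aminotransferase, stood at 572, 639 and 589.9 CPM in WT untagged and 245, 233 and 234 CPM in rad6Δ untagged. It stood at 578, 480.2 and 538 CPM in WT tagged and 246, 219.5 and 274 CPM in rad6Δ tagged. The deletion libraries were below every wild-type library, with log2 fold changes of -1.34 ± 0.11, adjusted p = 1.2e-08, and -1.11 ± 0.11, adjusted p = 1.2e-07. H2B-K123R at 606, 556 and 568 CPM overlapped its wild type (-0.06 ± 0.11, adjusted p = 0.74). The values were 732, 598 and 563 CPM in rad6-R6A,M10A, 870.5, 715 and 819.8 CPM in rad6-R6Q and 785, 668 and 646 CPM in rtf1-108-110AAA. Those of rtf1-108-110AAA and rad6-R6Q lay above WT tagged (0.39 ± 0.11, adjusted p = 0.013, and 0.59 ± 0.11, adjusted p = 0.00046), and rad6-R6A,M10A was not called (0.25 ± 0.11, adjusted p = 0.11). BAT1, the mitochondrial aminotransferase, which shares 72.0% of bases with BAT2 over 94.5% of its length, fell in rad6Δ tagged (-0.40 ± 0.14, adjusted p = 0.024), rad6Δ untagged (-0.61 ± 0.14, adjusted p = 0.0013) and H2B-K123R (-0.71 ± 0.14, adjusted p = 0.00067). With K. lactis scaling its log2 values in the 2 rad6Δ strains were -0.37 and -0.10.

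LEU4 and LEU9 encode isopropylmalate synthases, the entry to leucine synthesis, and share 81.3% of bases. LEU9 fell from 446 to 516 CPM in the wild types to 247 to 309.9 CPM in the rad6Δ strains, with log2 fold changes of -0.80 ± 0.20, adjusted p = 0.0031, and -0.86 ± 0.20, adjusted p = 0.0019. It also fell in H2B-K123R (-0.63 ± 0.20, adjusted p = 0.026) and rad6-R6Q (-0.65 ± 0.20, adjusted p = 0.02), and the rad6-R6Q value was -0.34 without its replicate 1. LEU4 was lower in the rad6Δ strains by similar amounts but with a wider spread and was called nowhere (-0.67 ± 0.28, adjusted p = 0.065, and -0.60 ± 0.28, adjusted p = 0.095). LEU1 fell in H2B-K123R, from 3606, 3302 and 3288 CPM to 2503, 1914 and 2198 CPM (-0.62 ± 0.12, adjusted p = 0.00044).

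Of the genes for isoleucine and valine synthesis, ILV5, the acetohydroxyacid reductoisomerase gene, fell in rad6Δ untagged (-1.23 ± 0.26, adjusted p = 0.00065), H2B-K123R (-0.87 ± 0.25, adjusted p = 0.015) and rad6-R6Q (-0.80 ± 0.25, adjusted p = 0.023). ILV3, the dihydroxyacid dehydratase gene, fell in rad6Δ untagged (-0.80 ± 0.16, adjusted p = 0.00026) and H2B-K123R (-0.55 ± 0.16, adjusted p = 0.011). ILV1, threonine deaminase, rose in rtf1-108-110AAA (0.46 ± 0.13, adjusted p = 0.011) and rad6-R6A,M10A (0.40 ± 0.13, adjusted p = 0.025), and in the rad6Δ and H2B-K123R strains its log2 value was within 0.02 of 0. ILV2, the catalytic subunit of acetolactate synthase, fell in both rad6Δ strains (log2 -0.26 in the tagged and -0.42 in the untagged strain, but 0.05 and -0.18 with K. lactis scaling, which turns the first) and rose in rad6-R6Q (0.30 ± 0.09, adjusted p = 0.015). ILV6, its regulatory subunit, was a low transcript that rose in rad6Δ tagged (0.71 ± 0.28, adjusted p = 0.043) and fell in rad6Δ untagged (-0.90 ± 0.28, adjusted p = 0.013). The difference between those effects was not called (adjusted p = 0.095). When single libraries were left out, the call of BAT1 in rad6Δ tagged was lost without its replicate 2 or 3 or WT tagged replicate 1 or 2 (adjusted p up to 0.099), and that of ILV2 in rad6Δ tagged without its replicate 3 or WT tagged replicate 3 (up to 0.06). The call of ILV6 in rad6Δ tagged was lost without its replicate 2 or WT tagged replicate 1 or 3 (up to 0.26), and that of ILV6 in rad6Δ untagged without WT untagged replicate 1 (up to 0.14). The call of LEU9 in H2B-K123R was lost without its replicate 1, 2 or 3 or WT untagged replicate 1 or 3 (up to 0.096), and that of ILV3 in H2B-K123R without its replicate 1 or WT untagged replicate 3 (up to 0.083). The call of ILV5 in H2B-K123R was lost without its replicate 3 or WT untagged replicate 1 (up to 0.11), and that of ILV1 in rtf1-108-110AAA without its replicate 3 or WT tagged replicate 1 (up to 0.074). The call of LEU9 in rad6-R6Q was lost without WT tagged replicate 2 (up to 0.079), and that of ILV2 in rad6-R6Q without its replicate 1 or WT tagged replicate 2 (up to 0.083). The call of ILV5 in rad6-R6Q was lost without its replicate 1 or 3 or WT tagged replicate 2 (up to 0.14), and that of ILV1 in rad6-R6A,M10A without its replicate 1 or 3 or WT tagged replicate 1 or 3 (up to 0.12).

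Lysine synthesis through α-aminoadipate held LYS4 and LYS9, which fell in every mutant. LYS9 (YNR050C, chrXIV:714048-715388), a saccharopine dehydrogenase gene, stood at 308, 296 and 305 CPM in WT untagged, 189.9, 159 and 165 CPM in rad6Δ untagged and 192, 177 and 212 CPM in H2B-K123R. It stood at 316, 278 and 332 CPM in WT tagged, 174, 152 and 172 CPM in rad6Δ tagged, 215, 248 and 195 CPM in rad6-R6A,M10A, 254, 199 and 231 CPM in rad6-R6Q and 272, 219.9 and 176 CPM in rtf1-108-110AAA. All mutant libraries were below all wild-type libraries, and the group means of the deletions were lowest. The log2 fold changes were -0.82, -0.90, -0.65, -0.49, -0.44 and -0.47, each with an SE of 0.13 and adjusted p of at most 0.016. LYS4, the homoaconitase gene, fell by 0.24 to 0.82 on the log2 scale, with levels of 203 to 259 CPM in the wild types and 130.1 to 193 CPM in the mutants. With K. lactis scaling both genes still fell in the rad6Δ strains and H2B-K123R but were called in none of the tagged substitutions, where LYS9 had -0.22, -0.24 and -0.23 and LYS4 0.02, -0.13 and -0.07, which changes sign in rad6-R6A,M10A. LYS12, homo-isocitrate dehydrogenase, fell in the 2 rad6Δ strains and H2B-K123R (-0.60, -0.49 and -0.48).

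LYS1 and LYS2 moved the other way. LYS1, which encodes the saccharopine dehydrogenase of the last step, rose in rad6Δ tagged (0.77 ± 0.26, adjusted p = 0.021), rtf1-108-110AAA (0.91 ± 0.26, adjusted p = 0.012) and rad6-R6A,M10A (0.90 ± 0.26, adjusted p = 0.013), at levels of 6.94 to 19.6 CPM. These strains were set against WT tagged, which had 53, 64 and 65 LYS1 counts where WT untagged had 87, 89 and 68. That difference between wild types was not called. Against WT untagged the LYS1 values were 0.10 in rad6Δ untagged and 0.51 in H2B-K123R, without a call. LYS2, the aminoadipate reductase gene that carries the lys2-128δ insertion of a Ty1 delta element in all strains, stood at 84.6, 84.6 and 82.8 CPM in WT untagged and 117, 112 and 106 CPM in rad6Δ untagged. It rose there (0.41 ± 0.09, adjusted p = 0.00091), in rtf1-108-110AAA (0.28 ± 0.09, adjusted p = 0.027) and in rad6-R6Q (0.31 ± 0.09, adjusted p = 0.013). Counts over the gene do not show on which side of the insertion the reads lay. LYS20 and LYS21 encode homocitrate synthases and share 95.0% of bases over 88.6 to 91.1% of their length, so reads may have been exchanged or left out and their counts are uncertain. LYS20 fell in rad6Δ untagged (-0.99 ± 0.25, adjusted p = 0.0028), with 77, 55 and 62 counts in the wild type and 33, 30 and 43 counts in the mutant, and LYS21 was called nowhere. When single libraries were left out, the call of LYS1 in rad6Δ tagged was lost without its replicate 1 or 2 or WT tagged replicate 1 or 2 (adjusted p up to 0.095), and that of LYS12 in H2B-K123R without its replicate 3 or WT untagged replicate 1 (up to 0.097). The call of LYS1 in rtf1-108-110AAA was lost without its replicate 3 or WT tagged replicate 1 (up to 0.12), and that of LYS2 in rtf1-108-110AAA without its replicate 1 or WT tagged replicate 1 or 2 (up to 0.084). The call of LYS9 in rtf1-108-110AAA was lost without its replicate 3 or WT tagged replicate 3 (up to 0.065), and that of LYS2 in rad6-R6Q without WT tagged replicate 1 or 2 (up to 0.073). The call of LYS9 in rad6-R6Q was lost without WT tagged replicate 3 (up to 0.069), and that of LYS1 in rad6-R6A,M10A without its replicate 2 or 3 or WT tagged replicate 1 (up to 0.069). The call of LYS4 in rad6-R6A,M10A was lost without its replicate 1 or WT tagged replicate 2 or 3 (up to 0.14).

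Threonine and methionine share the path from aspartate, and its genes differed. HOM6 (YJR139C), homoserine dehydrogenase, stood at 1167, 1166 and 1125 CPM in WT untagged and 1375, 1195 and 1255 CPM in WT tagged, and at 724 to 993 CPM in the 18 mutant libraries, all below. Its log2 fold changes were -0.49, -0.69, -0.44, -0.57, -0.46 and -0.55, with adjusted p of at most 0.0038, and with K. lactis scaling it still fell in all 6, by 0.25 to 0.39. HOM2 fell in rad6Δ tagged (-0.32 ± 0.11, adjusted p = 0.025), with -0.01 under K. lactis scaling, and was above WT tagged in the means of the 3 tagged substitutions without a call (0.22, 0.17 and 0.27). HOM3, aspartate kinase, rose in H2B-K123R from 14.2, 9.34 and 12.2 CPM to 17, 17.2 and 22.2 CPM (0.65 ± 0.22, adjusted p = 0.029). THR1, homoserine kinase, fell in rad6Δ untagged (-1.15 ± 0.30, adjusted p = 0.0042). THR4, threonine synthase, rose in rad6Δ tagged (0.64 ± 0.24, adjusted p = 0.04), and its gene overlaps another on the opposite strand. When single libraries were left out, the call of HOM2 in rad6Δ tagged was lost without its replicate 2 or WT tagged replicate 3 (adjusted p up to 0.13), and that of THR4 in rad6Δ tagged without its replicate 2 or WT tagged replicate 1 or 3 (up to 0.31). The call of HOM3 in H2B-K123R was lost without its replicate 3 or WT untagged replicate 2 or 3 (up to 0.14).

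The genes of glutamine and asparagine synthesis rose wherever they were called. GLN1 (YPR035W), glutamine synthetase, which assimilates ammonium into glutamine, stood at 511, 436 and 427 CPM in WT tagged and 922, 894 and 839 CPM in rad6Δ tagged. It stood at 481, 489 and 508 CPM in WT untagged, 829, 924 and 852 CPM in rad6Δ untagged and 629, 598 and 577 CPM in H2B-K123R. Every mutant library was above its wild type. The log2 fold changes were 0.82, 0.95, 0.29, 0.74, 0.96 and 0.74, of which that of H2B-K123R was not called (adjusted p = 0.065). ASN1 (YPR145W), an asparagine synthetase gene, stood at 1469 to 1655 CPM in the wild types and 2339.8, 2151 and 2139 CPM in rad6Δ tagged, 2661, 2675 and 2575 CPM in rad6-R6A,M10A, 3829, 2769.8 and 2968 CPM in rad6-R6Q and 3222, 2808 and 2634 CPM in rtf1-108-110AAA. It rose in all 6 mutants by log2 0.54, 0.54, 0.47, 0.79, 1.07 and 0.93. ASN2, whose product catalyses the same reaction and whose gene shares 81.2% of bases with ASN1, was called in rad6-R6Q alone (0.43 ± 0.15, adjusted p = 0.036), and the value was 0.17 without rad6-R6Q replicate 1. PRO1, γ-glutamyl kinase of proline synthesis, rose in the 4 tagged mutants (0.47, 0.55, 0.47 and 0.54) and had 0.03 and 0.03 in rad6Δ untagged and H2B-K123R. The 6 mutant means were 115 to 129 CPM, while the tagged wild type was at 88.5 ± 9.99 CPM and the untagged at 113 ± 11.2 CPM (SD, n = 3; log2 -0.35 ± 0.13, adjusted p = 0.3). PRO2, the next enzyme, rose in rtf1-108-110AAA (0.81 ± 0.23, adjusted p = 0.014) and rad6-R6A,M10A (0.71 ± 0.23, adjusted p = 0.03). Its counts, not scaled for library size, were 515, 613 and 480 in WT tagged and 756, 595 and 664 in WT untagged. That difference between wild types was not called. When single libraries were left out, the call of PRO1 in rad6Δ tagged was lost without WT tagged replicate 1 (adjusted p up to 0.056), and that of PRO2 in rtf1-108-110AAA without its replicate 2 or 3 or WT tagged replicate 1 or 3 (up to 0.062). The call of PRO1 in rad6-R6Q was lost without WT tagged replicate 1 (up to 0.081), and that of ASN2 in rad6-R6Q without its replicate 1 or WT tagged replicate 1, 2 or 3 (up to 0.34). The call of PRO2 in rad6-R6A,M10A was lost without its replicate 1 or 3 or WT tagged replicate 1 or 3 (up to 0.15).

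The substitutions were next set directly against the deletion of their tag status, which asks whether a substitution gives the same levels as loss of the enzyme. In rad6-R6Q 12 members were higher and 1 lower than in rad6Δ tagged (8.2% and 8.22% of all genes). In rad6-R6A,M10A 9 were higher and 0 lower (3.71% and 4.84%), and in rtf1-108-110AAA 13 were higher and 0 lower (6.44% and 7.89%). In H2B-K123R 4 members were higher and 1 lower than in rad6Δ untagged (5.25% and 5.27%). With K. lactis scaling the counts higher and lower were 8 and 3, 7 and 0, 8 and 0, and 3 and 4. The count of 9 in rad6-R6A,M10A was 5 without its replicate 2 or rad6Δ tagged replicate 1, and that of 13 in rad6-R6Q was 8 without rad6Δ tagged replicate 2.

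BAT2 showed the largest of these differences, 1.28 ± 0.11 (SE) in H2B-K123R, 1.36 ± 0.11 in rad6-R6A,M10A, 1.51 ± 0.11 in rtf1-108-110AAA and 1.70 ± 0.12 in rad6-R6Q, with adjusted p of at most 9.3e-08. HIS1, ARO3, ARO4, ILV2, HOM2 and LYS4 were also higher in all 3 tagged substitutions than in rad6Δ tagged. For HIS1 the differences were 0.75 ± 0.16, 0.55 ± 0.16 and 0.71 ± 0.16 in rad6-R6Q, rad6-R6A,M10A and rtf1-108-110AAA, and for HOM2 they were 0.49 ± 0.11, 0.54 ± 0.11 and 0.59 ± 0.11. ARO3 was thus raised above the wild type in the deletion and raised further in the substitutions (0.43 ± 0.12, 0.50 ± 0.12 and 0.46 ± 0.12), whereas LYS4 fell in all and fell further in the deletion. HIS7 and TRP3, which rose in every mutant, differed from the deletion by at most 0.03 and 0.19 in the 3 tagged substitutions and were not called there. Against rad6Δ untagged, H2B-K123R had higher GCN4, BAT2, ILV6 (1.10 ± 0.28, adjusted p = 0.013) and HOM3 (1.11 ± 0.22, adjusted p = 0.0022), and lower GLN1 (-0.53 ± 0.11, adjusted p = 0.004).

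**Figure D4:**
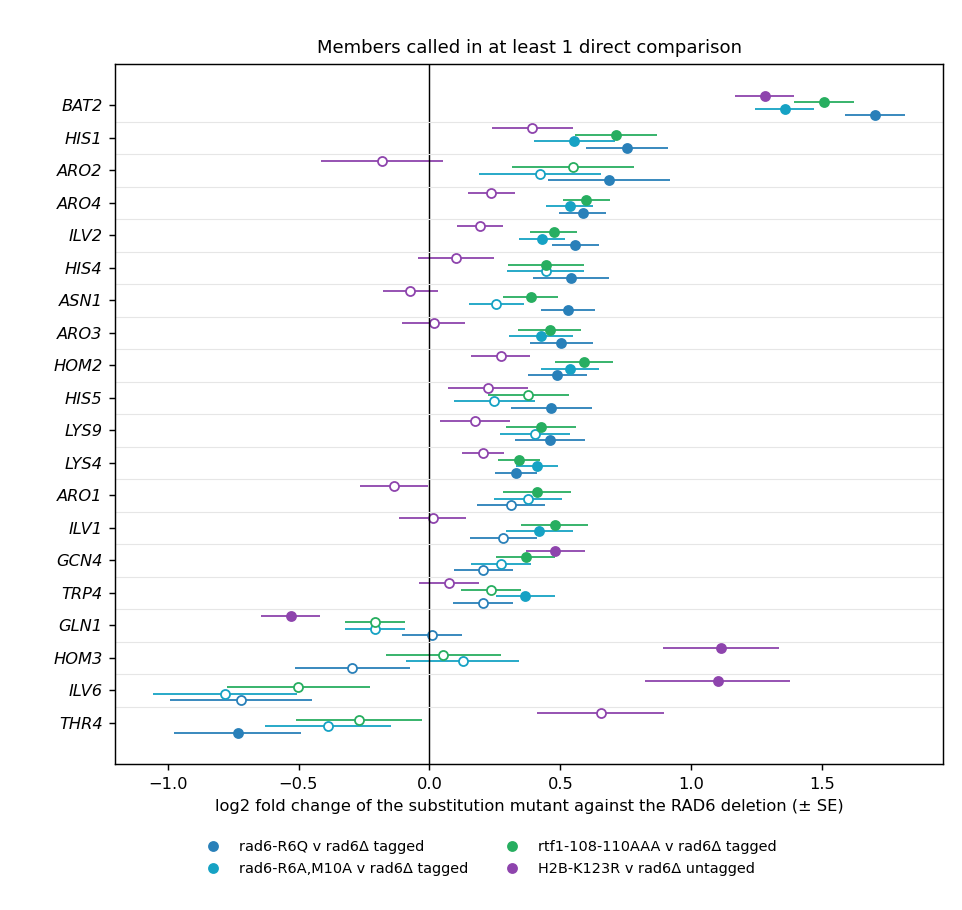
Log2 fold change with its SE (horizontal axis) of each substitution mutant (colours) against the RAD6 deletion of the same tag status, for the 20 members called in at least 1 of the 4 comparisons (vertical axis, ordered by the value of rad6-R6Q), with filled points for called values. BAT2 lies between 1.28 and 1.70 in all 4, and most other filled points lie between 0.33 and 0.75.

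The effect of H2B-K123R was also compared with the mean effect of the 3 tagged substitutions, each against its own wild type. The difference was called for ARO1 (-0.82 ± 0.17, adjusted p = 0.01) and ILV2 (-0.45 ± 0.12, adjusted p = 0.043), both lower in H2B-K123R (2.25% of all genes called). A single member was called in each fit without H2B-K123R replicate 1 or 2, rad6-R6A,M10A replicate 2, rtf1-108-110AAA replicate 2 or any 1 of the 6 wild-type libraries, while 4 members were called without rad6-R6Q replicate 1 or 2. No member was called for a difference between tagged and untagged strains in the effect of deleting RAD6 (9 had an unadjusted p under 0.05, DESeq2 called 2, and 0.276% of all genes were called). A single member was called without rad6Δ tagged replicate 1 or WT untagged replicate 2.

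Antisense reads were few, and 5 libraries stood apart on that strand. Over the 10 most abundant members with an antisense test, antisense reads were 0.352% of all counts in rtf1-108-110AAA replicate 3, 0.204% in rad6Δ untagged replicate 3, 0.19% in rad6Δ tagged replicate 3, 0.163% in WT untagged replicate 3 and 0.0992% in H2B-K123R replicate 3, against 0.0183 to 0.0563% in the other 19 libraries. Over ASN1, for example, they were 1, 6 and 98 in rtf1-108-110AAA, 2, 9 and 55 in rad6Δ untagged and 0, 1 and 19 in WT untagged, and over LEU1 3, 1 and 98 in rtf1-108-110AAA. Antisense results are therefore also given without these 5 libraries, a choice made after seeing the data.

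Antisense reads over GCN4 were called higher in every mutant, but most of these calls depended on single libraries. Of the 44 members, 30 had enough antisense counts for a test, in which the libraries kept the scaling of the sense table. GCN4 had 3, 7 and 6 antisense counts in WT untagged, 10, 16 and 14 in rad6Δ untagged and 21, 17 and 19 in H2B-K123R. It had 9, 5 and 6 in WT tagged, 12, 18 and 14 in rad6Δ tagged, 13, 15 and 19 in rad6-R6A,M10A, 19, 19 and 25 in rad6-R6Q and 15, 12 and 23 in rtf1-108-110AAA, so all mutant libraries had more than all wild-type libraries. The log2 fold changes were 1.18 ± 0.36, 1.09 ± 0.35, 1.75 ± 0.35, 1.08 ± 0.34, 1.33 ± 0.34 and 1.24 ± 0.34, with adjusted p from 0.0003 to 0.028. Without the 5 libraries they were 1.32, 1.12, 1.81, 1.08, 1.33 and 1.11, and the call in rtf1-108-110AAA was lost (adjusted p = 0.064). With TMM factors from the antisense counts the call in rad6Δ untagged was lost (0.91, adjusted p = 0.082). The calls in H2B-K123R and rad6-R6Q held in every fit without 1 library. The call in rad6Δ untagged was lost without its replicate 2 or WT untagged replicate 1 (adjusted p up to 0.12), and that in rad6Δ tagged without its replicate 2 or WT tagged replicate 2 or 3 (up to 0.099). That in rad6-R6A,M10A was lost without its replicate 2 or 3 or WT tagged replicate 2 or 3 (up to 0.14), and that in rtf1-108-110AAA without its replicate 3 or WT tagged replicate 2 (up to 0.07). These reads were 0.297 and 0.359% of all counts over GCN4 in the wild types and 0.995 to 1.23% in the mutants. The table counted without strand lost 10.4% of the antisense counts of GCN4, just over the limit of 10% at which a gene is taken to overlap another on the opposite strand.

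Over LYS20 antisense reads were of the same order as sense reads, and its counts may be shared with LYS21. They were 87, 68 and 81 in WT tagged, above the 27, 47 and 34 on the sense strand, and 47, 36 and 52 in WT untagged, below the 77, 55 and 62 on the sense strand. Antisense reads fell in rad6Δ tagged (-0.85 ± 0.20), rad6-R6A,M10A (-0.94 ± 0.20), in rad6-R6Q (-1.42 ± 0.21) and in rtf1-108-110AAA (-1.27 ± 0.21), to 29, 33 and 40 in rtf1-108-110AAA. Against the lower WT untagged they rose in H2B-K123R (0.75 ± 0.20) and had 0.01 ± 0.21 in rad6Δ untagged. The 4 falls held in every fit without 1 library, without the 5 libraries and with antisense TMM factors. The rise in H2B-K123R was lost without WT untagged replicate 2 (adjusted p = 0.05) and with antisense TMM factors (0.35, adjusted p = 0.18). A count that ignores strand gave LYS20 a fall in rad6-R6Q (-0.75, adjusted p = 0.0018) and rtf1-108-110AAA (-0.56, adjusted p = 0.017), where the sense strand had 0.14 and 0.32. HIS2 antisense reads rose in rad6Δ untagged and H2B-K123R (1.42 ± 0.24 and 1.65 ± 0.24), and those of LYS21, TRP4 and LEU4 rose in the same 2 strains, though TRP4 and LEU4 overlap other genes on the opposite strand. Both strains were set against WT untagged. Its mean antisense levels were 2.90, 0.889, 0.323 and 2.47 CPM for HIS2, LYS21, TRP4 and LEU4. In WT tagged they were 5.89, 1.85, 0.510 and 2.85 CPM, a difference between wild types that was not tested. In rad6Δ untagged the calls of LYS21, TRP4 and LEU4 were each lost without WT untagged replicate 2, that of LYS21 also without rad6Δ untagged replicate 2 and that of LEU4 without its replicate 3 (adjusted p up to 0.097, 0.055 and 0.19). Those of LYS21 and LEU4 were lost there with antisense TMM factors (adjusted p = 0.069 and 0.11), and that of TRP4 without the 5 libraries (adjusted p = 0.058). Over the 6 mutants there were 32 antisense calls among the members, 19 risen and 13 fallen, of which 13 held in every fit without 1 library. Without the 5 libraries there were 38, 23 risen and 15 fallen, with 30 of the 32 kept. With antisense TMM factors there were 29, 13 risen and 16 fallen, with 26 kept. They numbered 7 in rad6Δ untagged (29.2% of all genes tested on the antisense strand), 5 in rad6Δ tagged (27.7%), 7 in H2B-K123R (33%), 3 in rad6-R6A,M10A (18.6%), 6 in rad6-R6Q (20.7%) and 4 in rtf1-108-110AAA (20%). ILV3 antisense reads were called in rtf1-108-110AAA alone with all libraries (2.61, adjusted p = 0.037). Without the 5 libraries they were called higher in all 6 mutants, by log2 1.73 to 2.92, with adjusted p up to 0.035. The ILV3 antisense counts were low, at 3, 1 and 28 in WT untagged and 1, 2 and 5 in WT tagged.

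**Figure D5:**
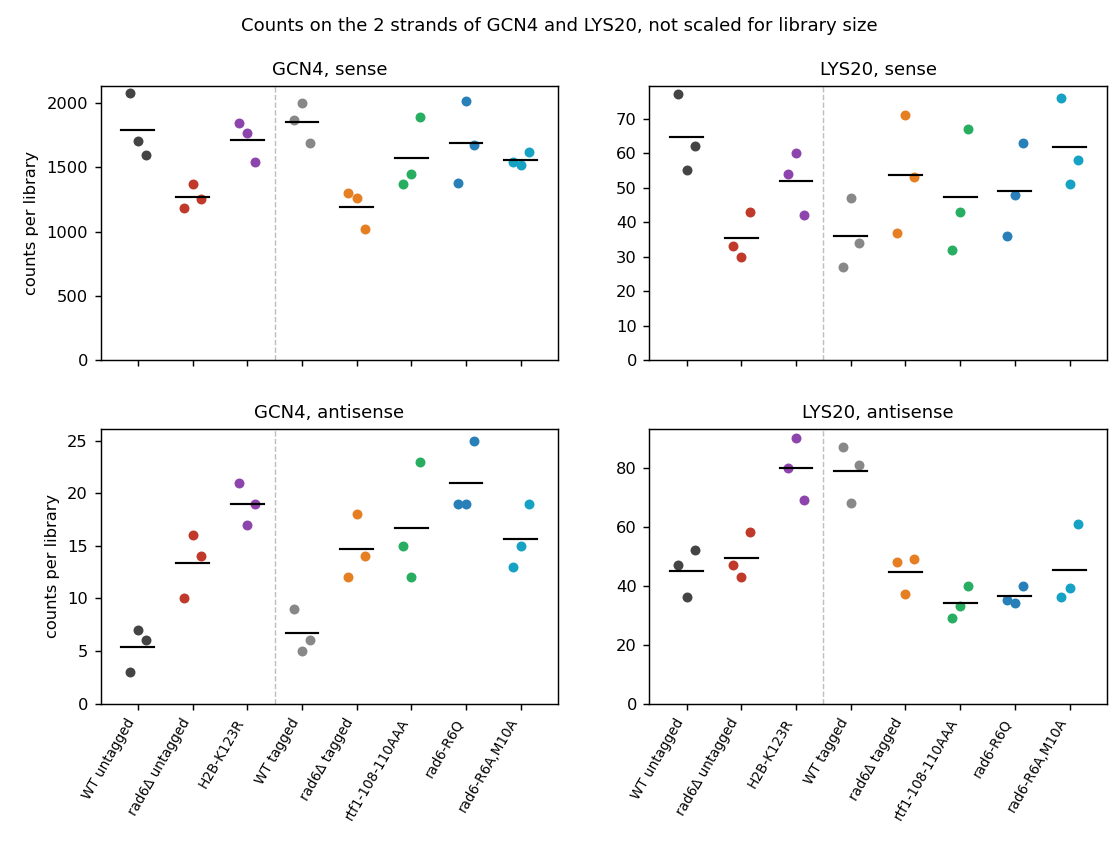
Counts per library (vertical axes, from 0, not scaled for library size) on the sense and antisense strands of GCN4 and LYS20 by strain group (horizontal axis), with group means as lines. Antisense counts over GCN4 are 3 to 9 in the wild types and 10 to 25 in the mutants, and those over LYS20 are 68 to 90 in WT tagged and H2B-K123R and 29 to 61 elsewhere.

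Genes around these pathways were counted from lists that were drawn up beside the members. Of 16 tested genes of the same or neighbouring pathways, 3 rose and 6 fell in rad6Δ tagged and 3 rose and 7 fell in rad6Δ untagged, where 21.5 and 22.3% of all genes rose and 20.2 and 20.5% fell. The 2 glutamate dehydrogenases that use NADPH, GDH1 and GDH3, rose in all 6 mutants, GDH1 standing at 1211 ± 75.3 CPM in rad6Δ tagged and 624 ± 42 CPM in its wild type (SD, n = 3). GLT1, glutamate synthase, fell in all 6 by 0.41 to 0.72 on the log2 scale, as did the transaminase genes AAT1 and ALT1. LEU2, isopropylmalate dehydrogenase, fell in the rad6Δ strains and H2B-K123R (log2 -0.92, -0.85 and -1.09), and OAC1, a mitochondrial carrier that exports isopropylmalate, fell in 4 mutants. Of 7 genes for pathway activators, GLN3, which activates genes of nitrogen use, rose in all 6 (log2 0.59 to 0.87), PHO2 rose in rad6Δ tagged, and LEU3, LYS14, ARO80, BAS1 and GAT1 were called nowhere.

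Of 17 amino acid permease genes, 5 rose and 8 fell in rad6Δ tagged, 5 rose and 7 fell in rad6Δ untagged, and 5 rose and 3 fell in H2B-K123R. Of all genes, 21.5, 22.3 and 14% rose there and 20.2, 20.5 and 12.3% fell. In rad6-R6A,M10A 1 rose and 5 fell (all genes 12 and 13.2%), in rad6-R6Q 3 rose and 5 fell (14.6 and 14.5%), and in rtf1-108-110AAA 0 rose and 5 fell (11.9 and 12.6%). TAT1, GNP1 and HIP1, which take up tyrosine and tryptophan, glutamine and histidine among other amino acids, fell in all 6, HIP1 by 0.29 to 0.71 on the log2 scale. The 4 permease genes with the largest mean absolute fold change were called higher in some mutants and lower in none. PUT4 and GAP1 rose in 3 mutants each, by log2 up to 2.58 and 1.30, and MUP3 and AGP1 in 4 each, by up to 1.39 and 0.96. PUT4 was low, with 9, 21 and 17 counts in WT untagged. Of 12 genes of amino acid breakdown, PUT1, proline oxidase, and PDC6, a pyruvate decarboxylase, rose in all 6, PUT1 by log2 0.71 to 2.09. GCV2, of the glycine cleavage system, fell in all 6, by 0.69 to 1.81.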

How the data were processed

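Strand-specific RNA sequencing libraries of 24 S. cerevisiae cultures, mixed with K. lactis cells, were measured as gene counts. The authors deposited raw counts per gene on the sense strand, on the antisense strand, without regard to strand, and for K. lactis. STAR 2.7.5a, featureCounts, DESeq2, R64 and sacCer3 are named in the submitters' processing notes, and the treatment of reads that match several genes is not given in the sources used here. The gene models of the R64 reference matched 5897 of the 6571 gene IDs and all members.

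All sense counts were fitted together in edgeR 4.0.16 (R 4.3.3, limma 3.58.1), with TMM factors, the filterByExpr filter, 8 group means and a robust quasi-likelihood F test. P-values were adjusted by Benjamini-Hochberg over the 5790 genes tested, or over 3900 on the antisense strand, which kept the sense scaling. The SE is the absolute log2 fold change divided by the square root of F. Fits were tested on simulated data with 200 changed genes. Gene sequences were compared with BLAST+ 2.17.0, and figures were drawn with matplotlib 3.10.9 in Python 3.11.15. Near-identical copies share at least 90% of bases over at least 50% of a gene. Alternatives were DESeq2 1.42.0 or its size factors, K. lactis scaling, no filter, counts without strand, fits of the compared groups only, a replicate block, antisense TMM factors, motif windows before the start codon only leaving out each library and, added after seeing the data, leaving out of the antisense fit the 5 libraries whose antisense share over 10 abundant members exceeded 2 times the median.

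Replicate numbers were checked for pairing by correlating same-numbered deviations from the group means. All 3 correlations exceeded 0.1 for rad6Δ tagged with WT tagged (lowest 0.188), rad6-R6Q with WT tagged (lowest 0.267) and rad6-R6Q with rad6Δ tagged (lowest 0.172), and not for the other comparisons.

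The members and lists were chosen with earlier results of these data known. Named genes were GCN4, LYS2, the member of each pathway with the largest and the smallest mean absolute fold change, both genes of 5 pairs for the same step, and, of each list, the genes called one way in all mutants. Some of the 4 genes of a list with the largest mean absolute fold change were also named. Other members are given by their values. GCN1, GCN2, SKP1, LEU2, OAC1 and PHO2 were named after their values were seen. The labels call the replicates biological, without saying whether cultures were started separately, so p-values measure the spread between these libraries.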

Additional observations from a re-analysis of the deposited data

Results flagged for a closer look

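The members ARO1 and ILV2 responded differently in H2B-K123R than in the 3 tagged substitutions, each set against its own wild type, in edgeR's test of the difference. ARO1, the pentafunctional gene of the shikimate pathway, had log2 fold changes of -0.37 in H2B-K123R and 0.46, 0.40 and 0.50 in rad6-R6A,M10A, then rad6-R6Q and last rtf1-108-110AAA, a difference of -0.82 ± 0.17, adjusted p = 0.01. ILV2, the catalytic subunit of acetolactate synthase, had -0.22 in H2B-K123R and 0.17, 0.30 and 0.21 in the others, a difference of -0.45 ± 0.12, adjusted p = 0.043. H2B-K123R is an untagged strain and the others are tagged, so substitution and tag cannot be told apart, and no member was called between the wild types. WT tagged stood at a log2 difference of -0.35 ± 0.13, adjusted p = 0.3, from WT untagged for ARO1 and -0.15 ± 0.09, adjusted p = 0.51, for ILV2. Each group had 3 libraries, so no test was made of single libraries standing apart. Libraries named above as apart were picked by their values or by a limit set after seeing the data.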

How the results depend on the processing

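Of the 124 calls of members against the wild types, 81 held in every fit that left out 1 library, 99 held with K. lactis scaling, 121 with counts that ignore strand and 124 with DESeq2, and 29 tests not called became called with K. lactis scaling. HIS4, HIS7, ARO3, TRP3, ASN1 and HOM6 kept their direction and calls in all 6 mutants in the leave-one-out, K. lactis, unstranded and DESeq2 fits. The cause of the other changes was not tested. Leaving out single libraries gave 24 to 25, 18 to 24, 12 to 17, 11 to 17, 15 to 25 and 14 to 19 members called in the 6 mutants, 0 to 0 between the wild types, 5 to 8, 8 to 13 and 9 to 11 for rad6-R6A,M10A, then rad6-R6Q and last rtf1-108-110AAA against rad6Δ tagged, 4 to 6 for H2B-K123R against rad6Δ untagged, 0 to 1 for the tag difference, 1 to 4 for H2B-K123R minus the substitutions, and 23 to 38 antisense calls. Low counts limit the antisense results and those of LYS20, LYS21, LYS1, HOM3 and ILV6.

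With K. lactis scaling the members called were 8 in place of 13 for rtf1-108-110AAA against rad6Δ tagged and 11 in place of 2 for H2B-K123R minus the substitutions. DESeq2 gave 14 in place of 9 for rad6-R6A,M10A against rad6Δ tagged, 9 in place of 5 for H2B-K123R against rad6Δ untagged, 2 in place of 0 for the tag difference and 5 for H2B-K123R minus the substitutions. No filter gave 1 for the last, counts without strand 5 for it and 8 for H2B-K123R against rad6Δ untagged. Fits of the compared groups only gave 13 in place of 22 in rad6-R6Q, 7 for rtf1-108-110AAA against rad6Δ tagged, 9 for H2B-K123R against rad6Δ untagged and 1 for H2B-K123R minus the substitutions. They also gave 802 in place of 1419 genes called in rtf1-108-110AAA, 842 in place of 1685 in rad6-R6Q, and against rad6Δ tagged 339 in place of 951 and 466 in place of 830.

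With the replicate block, 26, 24, 19, 19, 23 and 19 members were called in the 6 mutants, and against the deletions 11, 14, 13 and 7. Where numbers did not pair, the block moved no count of members by over 1.5 times; it called HIS2 in H2B-K123R (-0.33, adjusted p = 0.039) and rad6-R6A,M10A (-0.32, adjusted p = 0.044) and GCN4 in rtf1-108-110AAA (-0.29, adjusted p = 0.047), and where they paired it changed no call of a named gene.

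Of the 23 named genes, the values that changed sign were all uncalled before. With K. lactis scaling they were TRP4 0.022, ILV1 0.29, HIS2 0.045 in rad6Δ tagged; ILV1 0.24, HIS2 0.069 in rad6Δ untagged; PRO2 0.031 in H2B-K123R; ARO4 0.24, TRP4 0.19, HIS2 0.0063, BAT1 0.22, LEU4 0.13 in rtf1-108-110AAA; ARO4 0.18, TRP4 0.11, HIS2 0.060, BAT1 0.021 in rad6-R6Q; ARO4 0.21, BAT1 0.056 in rad6-R6A,M10A. Counts without strand gave LYS20 -0.26 in rad6Δ tagged; LYS20 0.17, HOM2 -0.011, ILV1 -0.011 in H2B-K123R; LYS20 -0.56 in rtf1-108-110AAA; LYS20 -0.75 in rad6-R6Q; LYS21 -0.022, LYS20 -0.24 in rad6-R6A,M10A. DESeq2 size factors gave ARO4 0.0085 in rtf1-108-110AAA, the DESeq2 test 0.0081 in rtf1-108-110AAA, and fits of the compared groups only ARO4 0.017 in rtf1-108-110AAA; ARO4 0.0024 in rad6-R6Q. Ranges over left-out libraries that crossed 0 were HOM2 -0.043 to 0.054, PRO1 -0.036 to 0.11, GCN4 -0.20 to 0.0017, ILV1 -0.082 to 0.12, PRO2 -0.19 to 0.19 in H2B-K123R; LYS21 -0.095 to 0.16, ASN2 -0.042 to 0.22, LEU4 -0.055 to 0.20 in rad6-R6A,M10A; ARO4 -0.076 to 0.046, LYS21 -0.13 to 0.33, LYS20 -0.12 to 0.33, TRP4 -0.23 to 0.057 in rad6-R6Q; PRO1 -0.036 to 0.11, ILV1 -0.075 to 0.10, LYS1 -0.12 to 0.22 in rad6Δ untagged; ILV1 -0.11 to 0.060 in rad6Δ tagged; ARO4 -0.075 to 0.096, TRP4 -0.12 to 0.046, BAT1 -0.14 to 0.049, LEU4 -0.36 to 0.12 in rtf1-108-110AAA.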
